A study of Mus musculus with 12 samples.

Results

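The 10 genes described here are Aspa, Cers2, Fa2h, Ugt8a, Gal3st1, Trf, Car2, Qdpr, Apod and Klk6, enzymes and secreted or transport proteins that oligodendrocytes of the central nervous system express at high levels and that are not part of the structural protein set of myelin. They were chosen by name from a table of 36121 genes measured by RNA sequencing in whole spinal cord, and 1 entry of the table carried each name. All 10 had a mean of at least 1 normalised TPM (a transcript level scaled for transcript length and library) over the 12 mice, as did 15259 genes in all, which were tested. TPM keeps no read depth, so the depth of each library is unknown.

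The mice were 3-month-old C57BL6 animals in 3 genotype groups of 4, each with 2 males and 2 females. Control mice had the genotype Tardbp-fl/fl, with both copies of Tardbp flanked by recombination sites and no Cre. Mice named cHet were Gfap-Cre; Tardbp-fl/+ and mice named cKO were Gfap-Cre; Tardbp-fl/fl, so every group carried at least 1 floxed allele and only the last 2 carried Cre. The product of Tardbp is TDP-43, which binds RNA, and the recombinase was driven by the promoter of Gfap, a gene of astrocytes, so the design deletes Tardbp in the cells that have used that promoter and leaves it in the others. Comparing cKO with control therefore changes both Cre and the deletion, while cKO and cHet both carry Cre.

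Oligodendrocytes wrap axons in myelin, a membrane rich in galactosylceramide and its sulfated form, sulfatide. The products of Cers2, Fa2h, Ugt8a and Gal3st1 carry out steps in the synthesis of these lipids. Cers2 attaches very long fatty acids to the sphingoid base, Fa2h hydroxylates the fatty acid, Ugt8a adds galactose and Gal3st1 adds sulfate. Aspartoacylase, the product of Aspa, splits N-acetylaspartate made by neurons and so frees acetate that can be used for lipid synthesis; its loss in humans causes Canavan disease. The other 5 genes serve other tasks: Trf encodes the iron carrier transferrin, Car2 carbonic anhydrase II, Qdpr the dihydropteridine reductase that regenerates tetrahydrobiopterin, Apod the lipocalin apolipoprotein D and Klk6 a secreted serine protease.

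Facts of the libraries that bear on these genes were as follows. Mean Tardbp was 170.6 ± 6.73 TPM in control cords, 170.4 ± 8.64 in those of cHet mice and 148.1 ± 5.06 in those of cKO mice (SD, n = 4 each), and its change in cKO against control was -0.20 on the log2 scale with a limma adjusted p of 0.0113. The summed TPM of a library was between 954895 and 978621 in control, 983452 and 1023987 in cHet, and 1017855 and 1048381 in cKO cords. Mitochondrially encoded genes took 16.04 to 18.3% of that sum in control and 19.0 to 20.4% in cKO cords. Summed markers of microglia were 242 to 252 TPM in control and 306 to 335 in cKO cords, with 5 of 7 genes called higher, and summed markers of astrocytes were 4023 to 4244 and 4660 to 5071 TPM, with 3 of 10 called higher and 2 lower. Markers of Schwann cells, which make the myelin of peripheral nerve, summed to at most 8.88 TPM in any library, with 2 of 5 above the filter and none called. Neuron markers had 2 of 6 called higher, fibroblast and ependymal markers 1 each of 5, and endothelial and blood markers none of 5 each. The part of these shifts in the results below was not tested.

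In cKO cords, 4 of the 10 genes fell relative to control: Aspa, Cers2, Fa2h and Qdpr. A gene is called here when its limma p, adjusted by Benjamini-Hochberg over all 15259 genes, is under 0.05. Over all genes tested, 496 were called lower, which is 3.25%. None of the 10 rose, where 878 of all genes tested, or 5.75%, were called higher. With libraries rescaled without mitochondrially encoded genes, this split of all genes was 473 higher and 822 lower, and 6 of the 10 were called lower. The median log2 difference of the 10 genes was -0.23, against 0.01 for all genes tested. In 6 of the 10, the 4 cKO cords all lay below the 4 control cords, a pattern that 6.59% of all genes tested showed. In RNA from whole cord, fewer cells of a type and less RNA per cell cannot be told apart.

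**Figure D1:**
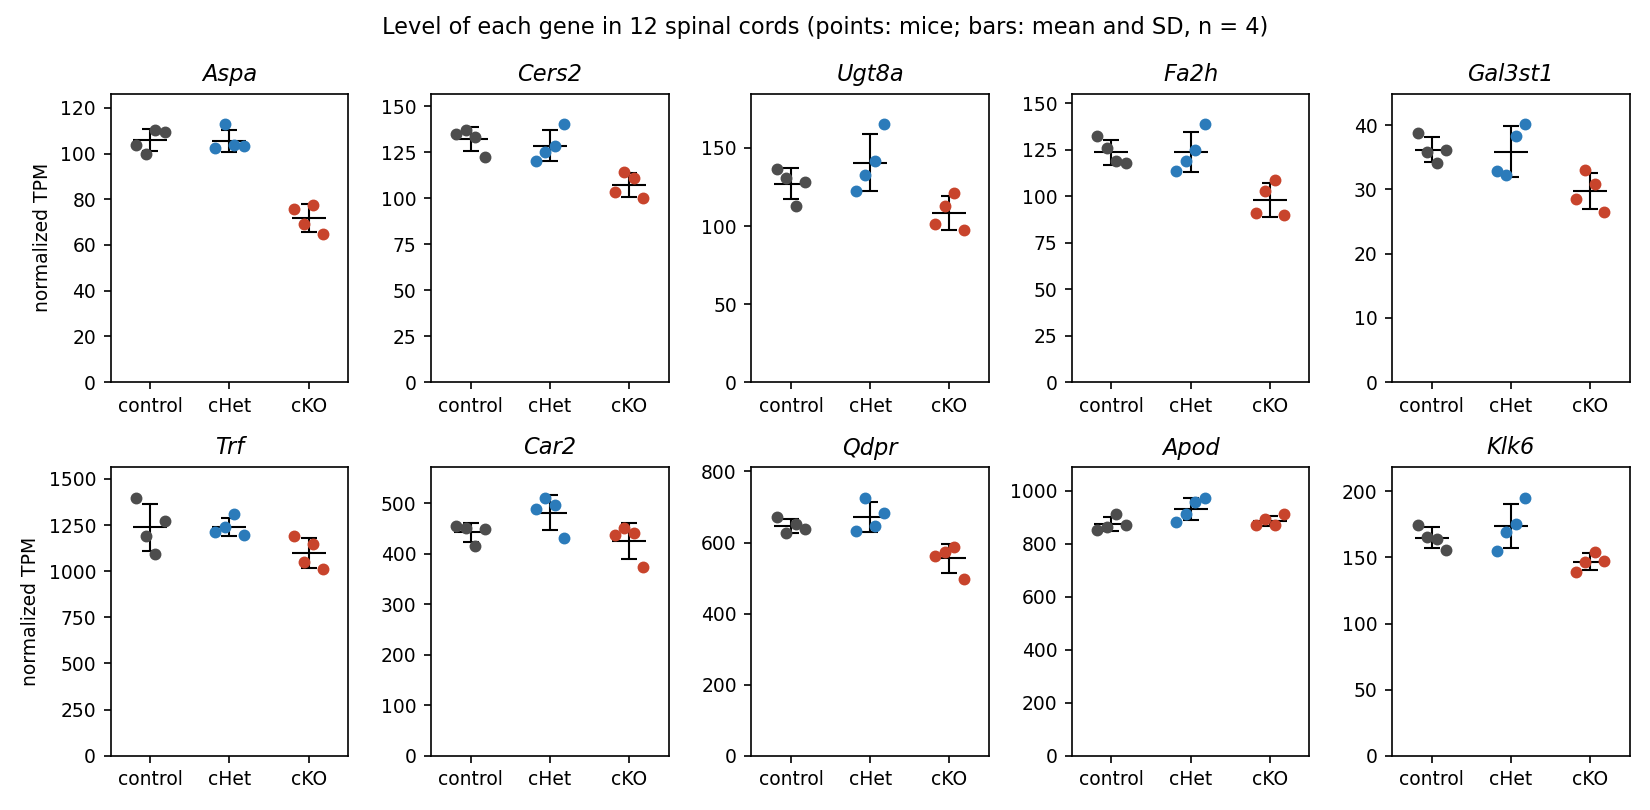
Normalised TPM of the 10 genes in each of the 12 mice, 1 panel a gene, on linear axes; points are mice, and bars are group means with their SD (n = 4). The cKO points of Aspa, Cers2, Fa2h, Gal3st1, Qdpr and Klk6 lie below every control point, and those of Ugt8a, Trf, Car2 and Apod overlap them.

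Aspa showed the largest change. It is encoded on chromosome 11 (GRCm38, 73304992 to 73329596, minus strand). The level was 103.9, 99.8, 110.5 and 109.3 TPM in the 4 control cords, 102.6, 112.7, 103.9 and 103.1 in the cHet cords, and 75.6, 69.3, 77.6 and 64.6 in the cKO cords. The highest cKO cord was thus below the lowest cord of either other group. The mean fell from 105.9 ± 4.97 TPM in control to 71.8 ± 5.95 in cKO (SD, n = 4), a difference of 32.2%. On the log2(TPM + 0.5) scale, on which all log2 differences here are given, the change was -0.56 ± 0.06 (SE; 95% interval -0.69 to -0.43), with a limma adjusted p of 0.000163. The two-sided exact permutation p was 0.0286, the smallest that 4 mice against 4 allow. By unadjusted p, Aspa stood at position 48 among the genes tested.

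The 4 genes of galactolipid synthesis are given next. Cers2 (chromosome 3, 95314791 to 95323599, plus strand), the ceramide synthase of very long acyl chains, measured 135.2, 137.3, 133.4 and 122.7 TPM in control cords and 103.6, 114.4, 111.0 and 100.2 in cKO cords. Its groups did not overlap, and the change was -0.30 ± 0.06 (SE), with a limma adjusted p of 0.0062. Cers2 overlaps Setdb1, which averaged 16.1 TPM, by 75 bases on the opposite strand, and an antisense gene with only a clone name by 337 bases. Whether the kit marked strand is not given in the sources used here.

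Fa2h (chromosome 8, 111345135 to 111393824, minus strand), the fatty acid hydroxylase, was at 132.3, 125.9, 118.8 and 117.9 TPM in control cords and at 90.8, 102.7, 108.8 and 90.0 in cKO cords. All 4 cKO values were lower than every control value. The mean fell by 20.7%, and the log2 change was -0.34 ± 0.07 (SE), with a limma adjusted p of 0.0141.

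Ugt8a (chromosome 3, 125865271 to 125938619, minus strand), which makes galactosylceramide, was more variable. Control cords had 136.7, 130.9, 112.9 and 128.2 TPM, and cKO cords had 101.6, 113.1, 120.9 and 97.2. Here the third cKO cord lay above the lowest control cord, so the groups overlapped. The difference was -0.23 ± 0.09 (SE; 95% interval -0.44 to -0.03) with a limma adjusted p of 0.159, which did not pass the threshold. Gal3st1 (chromosome 11, 3983636 to 3999326, plus strand), which makes sulfatide, was at 38.7, 35.8, 34.1 and 36.1 TPM in control cords and at 28.4, 32.9, 30.9 and 26.5 in cKO cords. Its groups did not overlap, and its difference of -0.28 ± 0.08 (SE) had a limma adjusted p of 0.0510, just above the threshold. Of the galactolipid genes, Cers2 and Fa2h were thus called lower, and Ugt8a and Gal3st1 were lower by their point estimates without passing the test.

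Among the support genes, only Qdpr was called in this comparison. Qdpr (chromosome 5, 45434021 to 45450236, minus strand) measured 670.5, 626.2, 651.8 and 639.0 TPM in control cords and 562.8, 573.5, 586.8 and 497.3 in cKO cords. All cKO cords were below all control cords, and the difference was -0.22 ± 0.05 (SE) with a limma adjusted p of 0.0252. The call was lost without cKO mouse 4 (adjusted p 0.0525) and without control mouse 1 (0.0663), 3 (0.0624) or 4 (0.0514). It was also lost when no filter on low values was used (0.0549). An annotated antisense gene spans most of Qdpr, introns included. Whether reads of the pair were shared was not tested.

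Klk6 (chromosome 7, 43824499 to 43832030, plus strand) was at 174.8, 165.8, 164.1 and 155.6 TPM in control cords and at 138.7, 146.2, 154.5 and 147.2 in cKO cords. The groups were separate, although the lowest control cord was close to the highest cKO cord. The difference of -0.17 ± 0.06 (SE) did not pass the threshold (limma adjusted p = 0.116).

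Trf (chromosome 9, 103204001 to 103230444, minus strand) had the highest level of the 10 and the widest control spread. It measured 1397, 1191, 1095 and 1269.9 TPM in control cords and 1188, 1049.8, 1147 and 1012 in cKO cords. The groups overlapped, and the difference of -0.17 ± 0.07 (SE; 95% interval -0.32 to -0.02) did not pass the threshold (limma adjusted p = 0.173). A predicted gene on the same strand spans nearly all of Trf and averaged 7.88 TPM, and the authors' counting could divide reads between both names.

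Car2 (chromosome 3, 14886273 to 14900770, plus strand) was at 455.7, 451.7, 414.9 and 448.8 TPM in control cords and at 436.4, 451.4, 441.4 and 373.6 in cKO cords. These ranges overlapped widely, with a difference of -0.06 ± 0.07 (SE; 95% interval -0.20 to 0.08) and a limma adjusted p of 0.652.

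Apod (chromosome 16, 31296192 to 31314808, minus strand) was the only one of the 10 with a point estimate above 0. It measured 853.7, 864.7, 911.5 and 871.1 TPM in control cords and 870.0, 894.7, 870.2 and 911.0 in cKO cords. The cKO values lay inside the control range, with a difference of 0.02 ± 0.03 (SE; 95% interval -0.06 to 0.09) and a limma adjusted p of 0.815. The sign of this difference turned to -0.03 when libraries were rescaled without mitochondrially encoded genes. The 10 genes therefore ranged from -0.56 for Aspa to 0.02 for Apod, and the 95% intervals of these 2 did not overlap.

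**Figure D2:**
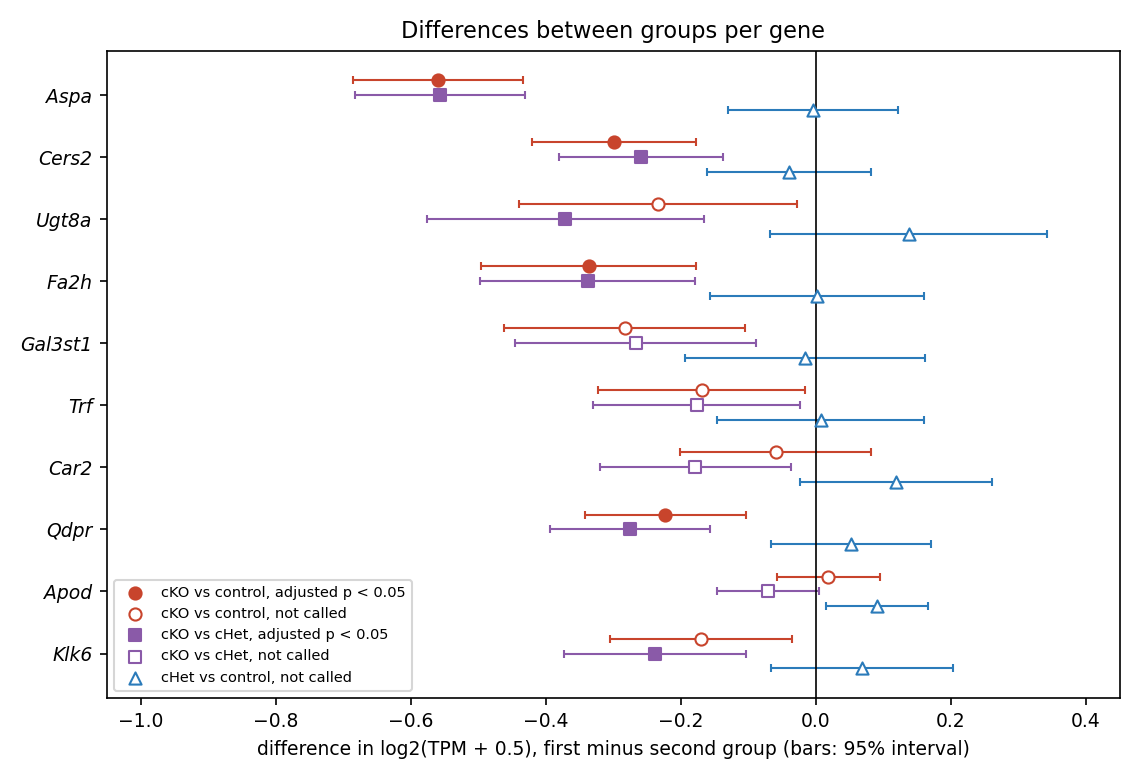
Log2 difference of each of the 10 genes for cKO against control, cHet against control and cKO against cHet; points are estimates, bars are 95% intervals from limma, and filled points passed an adjusted p of 0.05. Aspa lies lowest in both comparisons with cKO, at -0.56, and no point of cHet against control is filled.

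The authors' deposited tables gave 6 of the 10 genes a q-value under 0.05 in cKO against control by the likelihood ratio test, namely Aspa (0.000172), Cers2 (0.00739), Fa2h (0.0217), Qdpr (0.0304), Gal3st1 (0.0414) and Klk6 (0.0422). In that table of 17916 genes, 523 (2.92%) were lower with such a q-value. Ugt8a (0.156), Apod (0.159), Trf (0.291) and Car2 (0.731) were above it in the authors' deposited table. The 4 genes called by limma were all among the 6, which also took in Gal3st1 and Klk6.

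None of the 10 genes was called in cHet against control by limma, where 0% of the 15259 genes were called. None of the 10 had all 4 cHet cords above or below all 4 control cords, which 4.12% and 2.1% of genes tested had. At an unadjusted p under 0.05, limma gave 1724 of all genes and 1 of the 10, Apod. Apod was at 881.8, 913.8, 959.0 and 973.5 TPM in cHet cords, a difference from control of 0.09 ± 0.03 (SE) with a limma adjusted p of 0.371. The largest point estimate was that of Ugt8a, at 122.2, 132.8, 141.7 and 165.1 TPM in cHet cords, and its 0.14 ± 0.09 (SE) had an adjusted p of 0.631 by limma. The cHet values of both genes overlapped those of control. Aspa was close to control, with a mean of 105.6 ± 4.79 TPM in cHet and 105.9 ± 4.97 in control (SD, n = 4). The authors' deposited tables gave none of the 10 a q-value under 0.05 for this pair by either test, while the Wald test there listed 28 genes of all.

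When cKO was set against cHet, both groups carrying Cre, 6 of the 10 genes fell: Aspa, Cers2, Fa2h, Qdpr, Ugt8a and Klk6. The share of all genes called lower in this comparison was 2.61%, with 2.41% called higher and 5.01% in either direction, and the median of the 10 was -0.26 against 0.0049 for all genes. This comparison shares its cKO mice with the one against control, so the pair are not independent. The Aspa difference was -0.56 ± 0.06 (SE), with a limma adjusted p of 0.000201. Cers2 differed by -0.26 (0.0186) and Fa2h by -0.34 (0.0187), with the limma adjusted p in brackets.

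Qdpr was at 631.5, 725.5, 646.0 and 683.0 TPM in cHet cords, all above the cKO cords, and differed by -0.28 with a limma adjusted p of 0.0117. Ugt8a differed by -0.37 ± 0.09 (SE; limma adjusted p = 0.0438) and Klk6, at 155.0, 169.2, 175.1 and 195.0 TPM in cHet cords, by -0.24 ± 0.06 (SE; 0.0474). Every cHet cord lay above every cKO cord for both genes. These last calls were near the threshold: among 22 other settings, Ugt8a lost its call in 13 and Klk6 in 15, with adjusted p up to 0.128 and 0.122. Leaving out cKO mouse 1 or cKO mouse 4 brought the number of the 10 called lower from 6 to 2, and leaving out cHet mouse 3 brought it to 3.

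Gal3st1 (-0.27, limma adjusted p 0.0917), Car2 (-0.18, 0.161), Trf (-0.18, 0.203) and Apod (-0.07, 0.311) did not pass in cKO against cHet. Trf did have separate groups here, with cHet cords at 1213, 1240.5, 1309 and 1198 TPM against at most 1188 in cKO. In all, 7 of the 10 genes had non-overlapping groups in this direction, a pattern seen in 5.33% of genes tested, and none had them in the other, where 6.14% of genes did. The authors' deposited table for this pair gave 5 of the 10, all lower, a likelihood ratio q-value under 0.05, which included Trf (0.0404) and Ugt8a (0.0478). Of all genes there, 3.78% had one in either direction and 1.91% were lower with one. Qdpr (0.0530) and Klk6 (0.0791), called by limma, were above 0.05 by that test in the authors' deposited table. By the authors' Wald test, 7 of the 10 had a q-value under 0.05, among them Qdpr (0.0128) and Klk6 (0.0352). Of all genes, 2.47% were lower with such a Wald q-value.

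The cKO mice differed among themselves along the whole set. The mean log2 value of the 10 genes relative to the control mean was -0.25, -0.19, -0.15 and -0.34 in cKO mice 1 to 4. It lay between -0.04 and 0.06 in control mice and between -0.05 and 0.11 in cHet mice. Mouse 4 of the cKO group was the lowest of its group for 8 of the 10 genes, and Aspa was the lowest of the 10 genes in each of the 4 cKO mice. The mean of 12 structural myelin genes, such as Mbp and Mag, was -0.36, -0.28, -0.27 and -0.45 in the same 4 mice, so the order of the mice was the same in both sets. The cHet mice also spread, with means of the 10 genes of -0.05, 0.03, 0.07 and 0.11 in cHet mice 1 to 4.

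**Figure D3:**
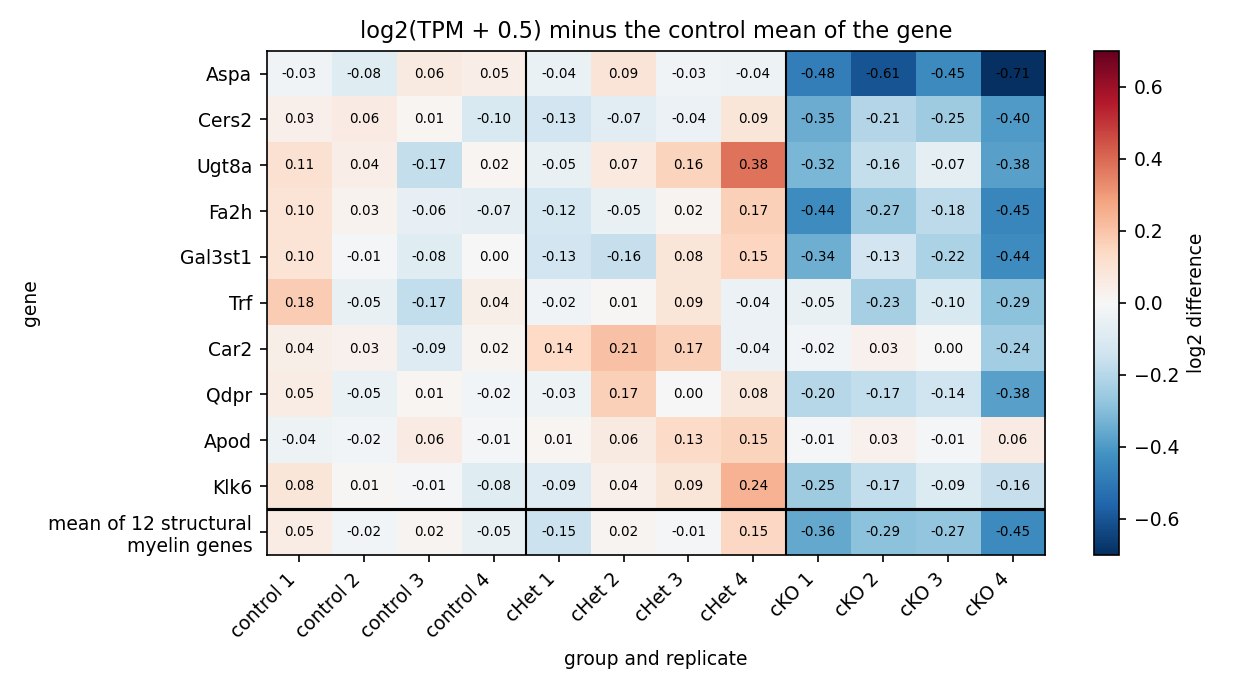
Heat map of log2 level relative to the control mean, with the 10 genes and the mean of 12 structural myelin genes as lines and the 12 mice as columns grouped by genotype; blue is lower and red higher. Aspa is the lowest of the 10 genes in each of the 4 cKO mice, and cKO mouse 4 has the lowest mean, -0.34.

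The structural myelin genes gave a scale against which to read the 10. Of these 12 genes, 9 were called lower in cKO against control, with a median of -0.35, and examples were Cnp (730.5 to 548.7 TPM), Mag (825 to 646) and Opalin (53.4 to 34.2). Each library was then set relative to its own mean log2 level of the 12 genes and the fit repeated, which gives a difference of changes and not a change. Against this reference, 72% of all genes tested were called higher and 0.269% lower in cKO against control, since the reference itself fell. Among the 10, Aspa was called lower, at -0.22 ± 0.07 (SE, 95% interval -0.38 to -0.06), with a limma p of 0.0093 unadjusted and 0.0158 adjusted. Because most genes were called in this fit, the adjustment raised p-values little. The Aspa transcript was thus reduced beyond the mean of the structural set in the same cords, but not beyond each of its genes. Opalin, 1 of the 12, fell by more than Aspa in cKO against control (-0.64 against -0.56).

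Apod (0.36 ± 0.06, SE; limma adjusted p = 0.00039), Car2 (0.28 ± 0.09; 0.0108) and Klk6 (0.17 ± 0.05; 0.0110) were called higher than this reference. With Mbp alone as the reference, a choice made after the data were seen, all 3 lost the call: Apod was at 0.16 (limma adjusted p 0.0591), Car2 at 0.08 (0.464) and Klk6 at -0.03 (0.747). Aspa kept its call against Mbp, at -0.42 (limma adjusted p 0.0018), and Cers2 (-0.16, 0.0333) and Fa2h (-0.19, 0.0313) were called lower than it. The share of all genes called against Mbp was not counted. Against the mean of the 12 genes, the other 6 were not called different. Fa2h was closest, at 0.0041 ± 0.06, followed by Cers2 at 0.04 ± 0.05 and Gal3st1 at 0.06 ± 0.07, and these signs turned with Mbp as the reference. For cKO against cHet, where 73.3% of genes were called higher and 0.249% lower, the genes called were Aspa (-0.21, limma adjusted p 0.0175) and Apod (0.27, 0.0023). With Mbp as the reference the Apod call was lost in that comparison too (0.14, limma adjusted p 0.0544).

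**Figure D4:**
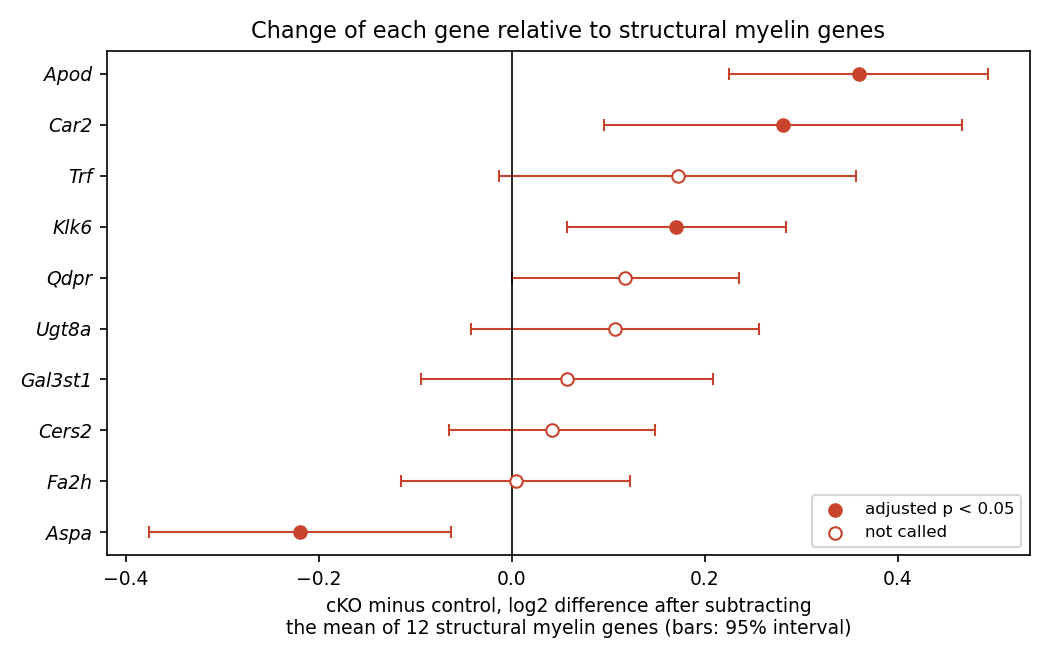
Log2 difference of cKO against control for each of the 10 genes relative to the mean of 12 structural myelin genes in the same library; points are limma estimates, bars 95% intervals, and the line at 0 marks a change equal to that mean. Aspa lies below the line at -0.22, and Klk6, Car2 and Apod lie above it, at 0.17, 0.28 and 0.36.

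The genes whose 12 values lay closest to those of a called member were found by the root mean square difference of log2 values relative to the control mean, over 9763 genes of at least 10 TPM. For Aspa these were Slc25a18, a mitochondrial carrier for glutamate (0.091), and Slc1a3, a glutamate transporter of astrocytes (0.096), against a median of 0.355 over all genes compared. Slc1a3 fell from 45.7 to 30.2 TPM in cKO cords. For Fa2h 1 of the 2 was Cers2 (0.059), for Cers2 they were the choline transporter gene Slc44a1 (0.057) and Arhgap23 (0.058), and for Qdpr they were Pter (0.042) and Jam3 (0.050). The profiles of Aspa, Cers2 and Qdpr therefore each lay nearest to genes outside the myelin lists, and that of Fa2h lay near another of the 10.

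Levels in control cords ran from Trf at 1238 ± 128 TPM (SD, n = 4), through Apod at 875 ± 25.2, Qdpr at 647 ± 18.9, Car2 at 443 ± 18.8, Klk6 at 165 ± 7.86, Cers2 at 132 ± 6.47, Ugt8a at 127 ± 10.1, Fa2h at 124 ± 6.76 and Aspa at 106 ± 4.97, to Gal3st1 at 36.2 ± 1.92. Neighbours in this order had separate ranges except Cers2 with Ugt8a and Ugt8a with Fa2h. The 5 genes of lowest level in control cords, Cers2, Ugt8a, Fa2h, Aspa and Gal3st1, had the 5 largest decreases by point estimate in cKO against control, from -0.23 to -0.56. The 5 of highest level had differences from -0.22 for Qdpr to 0.02 for Apod, as a description with no test.

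Each group held 2 males and 2 females, so the cKO difference could be set side by side in the sexes. The largest contrast was that of Trf, with -0.01 in females and -0.32 in males, a difference of 0.31 ± 0.12 (SE) and a limma adjusted p of 0.9996. No member passed the test of a sex difference, where 1 of the 15259 genes did; 592 genes of all had an unadjusted p under 0.05. The Aspa difference was -0.52 in females and -0.60 in males.

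Other genes of the pathways were taken from lists of each pathway. Values are for cKO against control unless stated, with TPM means and the log2 difference in brackets. In sphingolipid synthesis, 2 of 20 measured genes fell in cKO against control and none rose, with a median of -0.03. The ones that fell were Sptssa, a small subunit of serine palmitoyltransferase (54.7 to 48.7 TPM; -0.16), and Gltp, a glycolipid transfer protein (118 to 97.0; -0.28). In lipid breakdown, the saposin precursor gene Psap rose (908 to 981; 0.11). Of 7 genes that supply sugar and sulfate donors, the sulfate donor synthase Papss2 rose from 6.57 to 14.1 TPM (1.06) and its paralog Papss1 fell from 70.4 to 63.3 (-0.15). The test was not passed by 18 of 20, 8 of 10 and 5 of 7 measured genes in these lists. Psap was not called in cKO against cHet (0.11, limma adjusted p 0.0646), while Sptssa, Gltp, Papss2 and Papss1 were, in the same direction.

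Around Aspa, none of 10 genes of N-acetylaspartate and acetate use was called in cKO against control by limma. The smallest p was that of the fatty acid synthase gene Fasn, at 74.8 TPM in control and 66.7 in cKO (-0.17, limma adjusted p 0.0560). Around Qdpr, 2 of 10 tetrahydrobiopterin genes rose and none fell: Spr, sepiapterin reductase (49.2 to 58.0; 0.24), and Pcbd2, a pterin carbinolamine dehydratase (52.6 to 61.6; 0.22). Qdpr and these 2 genes of its pathway moved in opposite directions in cKO against control. Against cHet, where Qdpr was called lower, neither Spr (0.15, limma adjusted p 0.105) nor Pcbd2 (0.09, 0.472) was called.

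Around Trf, 2 of 17 iron genes rose, the ferritin light chain gene Ftl1 (357 to 435; 0.29) and the lysosomal channel gene Mcoln1 (87.5 to 107; 0.28). Of 16 carbonic anhydrase and bicarbonate transport genes, Car13 rose (3.41 to 5.36; 0.59) and Car3 (2.95 to 1.32; -0.92), Car5b (4.601 to 3.36; -0.41) and Car14 (109 to 92.9; -0.24) fell. Car2 stood apart from these by level, at 443 TPM in control cords. Around Apod, a list of lipocalins, apolipoproteins and some genes of neither family held the clusterin gene Clu (582 to 741; 0.35). It also held the basigin gene Bsg (487 to 560.0; 0.20), which is of neither family, and both rose. Ptgds, the lipocalin-type prostaglandin D synthase, fell from 1004 to 494 TPM (-1.02). Of 17 kallikrein, protease-activated receptor and serpin genes, 5 passed the filter, and 1, the protease inhibitor gene Serpine2, rose (173 to 202; 0.22). Not called in cKO against cHet were Ftl1 (0.13, limma adjusted p 0.175), Car13 (0.27, 0.173), Car14 (-0.17, 0.214) and Bsg (0.11, 0.200). Mcoln1, Car3, Car5b, Clu, Ptgds and Serpine2 were called there in the same direction.

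Lists of the oligodendrocyte lineage were set beside the 10 genes. Of 8 transcription factors, 3 fell and none rose, namely Myrf (-0.37), Zfp536 (-0.42) and Sox10 (-0.39). Of 8 genes of precursor and newly formed cells, Bcas1 (-0.17) and Enpp6 (-0.30) fell. Of 6 genes that mark subtypes of mature oligodendrocytes, Grm3 (-0.46), Hopx (-0.29) and Ptgds fell, and Anxa5 rose (0.16). The medians were -0.28, -0.21 and -0.28, near the -0.23 of the 10 genes. Sox10 (-0.28, limma adjusted p 0.126) and Anxa5 (0.09, 0.291) were not called in cKO against cHet. The other lineage genes named here were called there in the same direction.

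Promoter sequences were matched for 7 of the 10 genes in RefSeq (GRCm38.p6), with 11 start sites between them. The 250 bases before a start are printed for the gene that fell most, for the support gene that fell and for Apod, which was not called, with capitals for a motif match. The Aspa window is chr11:73324638-73324887 on the minus strand and lies inside the annotated span of the gene without touching an exon. The Qdpr window is chr5:45450230-45450479, also on the minus strand, and the Apod window is chr16:31314809-31315058 on the minus strand.
Aspa: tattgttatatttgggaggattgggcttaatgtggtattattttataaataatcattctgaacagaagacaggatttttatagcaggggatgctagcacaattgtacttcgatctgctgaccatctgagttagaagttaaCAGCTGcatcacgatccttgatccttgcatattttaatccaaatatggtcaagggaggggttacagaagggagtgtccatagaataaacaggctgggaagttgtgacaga
Qdpr: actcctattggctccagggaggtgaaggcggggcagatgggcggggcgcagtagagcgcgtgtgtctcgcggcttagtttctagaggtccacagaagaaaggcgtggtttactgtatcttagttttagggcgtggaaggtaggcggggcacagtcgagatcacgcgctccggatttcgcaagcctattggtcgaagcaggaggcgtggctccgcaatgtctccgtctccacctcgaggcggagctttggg
Apod: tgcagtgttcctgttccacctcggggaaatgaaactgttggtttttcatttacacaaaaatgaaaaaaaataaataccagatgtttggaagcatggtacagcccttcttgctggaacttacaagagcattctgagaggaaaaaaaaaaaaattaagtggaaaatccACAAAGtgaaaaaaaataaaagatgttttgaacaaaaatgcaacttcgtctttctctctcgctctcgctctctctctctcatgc
Their G and C content was 38.8%, 59.6% and 36.4%. Motifs were searched on both strands: ACAAAG and ACAATG of the SOX family, CTGGCAC of MYRF and the E-box CAGCTG, which do not overlap in these windows. ACAAAG was in 2 of the 11 windows, of Apod and Klk6, and in 16.5% of all 32851 promoters. ACAATG was in 3 of the 11, of Klk6 and of Gal3st1, whose overlapping windows share the match, and in 10.7% of all promoters. CAGCTG was in 2 of the 11, of Aspa and Cers2, and in 13.0% of all promoters, and CTGGCAC was in none of the 11 and in 4.19%. Of the windows printed, neither SOX letter string was in those of Aspa or Qdpr, and that of Apod held 1. So few short windows cannot set called genes apart from others, and a link between these strings and the changes was not tested.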

How the data were processed

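Whole spinal cord RNA from 12 mice, 4 per genotype, was sequenced. The authors deposited gene-level normalized TPM (a signal that is never negative); the submitters' processing notes name kallisto 0.44.0, sleuth 0.30.0 and GRCm38. The sources used here do not give the annotation release, filters or strandedness. The authors also deposited, for each pair of groups, p-values and q-values and an effect estimate (score), of which the sign alone was used. TPM holds no counts, so depth is unknown and no counting interval is given. The labels give no batch and no replicate numbers; mice are numbered in accession order, which is only a name.

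The 15259 genes (of 36121) whose mean over the mice reached 1 TPM were compared on log2(TPM + 0.5) with limma 3.58.1 in R 4.3.3 (all 12 mice in the fit, no covariate, eBayes with trend, two-sided), with Benjamini-Hochberg adjustment over all genes tested. A fold change on this scale understates the change of low genes. Single values were also compared by an exact permutation test over 70 assignments. No library was identical to another. P-values measure the spread between these mice.

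The 10 genes and all lists were chosen with earlier results of these data known, so lists are described by counts and medians and have no test. Named beside the 10 are Tardbp, up to 3 called genes per direction of each list in cKO against control by adjusted p (where none was called, the gene with the smallest p), and the 2 nearest genes of each called member; marker lists of other cell types are given by counts and sums. Gene positions are from GENCODE M21 on GRCm38. The limma step was checked on generated data with known changes. It called 16 of 50 changes of log2 size 0.25, 35 of 50 of size 0.5 and 49 of 50 of size 1. At size 2 it called 46 of 50, and 10 unchanged genes were called falsely. Changes of each size can therefore be missed, small ones most often. With 50 genes changed per size, fewer genes changed than the 1374 called in cKO against control, so these shares need not hold in the data. Alternatives were other pseudocounts, filters, scalings and fits, sex as covariate, summed duplicate names, another myelin reference and leaving out each mouse. Some genes of the lists and 1 further myelin reference are not reported here.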

Additional observations from a re-analysis of the deposited data

Results flagged for a closer look

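Among the 30 groups of 4 mice formed by the 10 genes and 3 genotypes, 2 held a mouse set apart from the other 3, where chance sets apart about 1 in 20 groups. For Aspa, cHet mouse 2 was at 112.7 TPM and the other 3 cHet mice were between 102.6 and 103.9 TPM, so the gap was 0.877 of the group's range, above Dixon's 95% critical value for 4 samples. For Car2, control mouse 3 was at 414.9 TPM and the other 3 control mice were between 448.8 and 455.7 TPM, a gap of 0.832 of the range. Neither gene was called in cHet against control.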

How the results depend on the processing

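Of the 4 genes called lower in cKO against control, Aspa, Cers2 and Fa2h kept direction and call under all 22 alternatives (highest limma adjusted p 0.0012, 0.0232 and 0.0449), and Qdpr lost its call in 5, with no filter on low values (0.0549) and without 1 mouse each in 4. Gal3st1 was called in 7 alternatives (0.0305 to 0.0439) and Klk6 in 3 (0.0433 to 0.0494), so the number called was 3 to 6. The split of all genes called moved with the scaling, from 878 up and 496 down to 699 and 575 with median-of-ratios factors, and to 473 and 822 when mitochondrially encoded genes were left out of the totals. With 1 mouse left out, the number of genes called was 815 (without cKO mouse 2), 891 (without cKO mouse 4) or 907 (without control mouse 2) at the low end and 1513 at the high end. In cHet against control, genes called were 2 without the filter and 0 to 1 with a mouse left out. In cKO against cHet, the number of the 10 called lower was 3 with only the 2 groups in the fit and 2 to 6 with a mouse left out, and those called relative to structural myelin were 1 to 3 (1 without cHet mouse 2 or cKO mouse 2). With Mbp alone as the reference, chosen after the data were seen, that number was also 1, and in cKO against control it was 3, all lower, with Aspa the 1 call shared with the 12-gene reference. The share of all genes called against Mbp was not counted, so these numbers have no background to be read against. Fa2h in cKO against cHet lost its call in 4 alternatives and Cers2 in 2.

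Signs turned where a difference was near 0. In cHet against control, median-of-ratios rescaling gave Fa2h -0.010 and Trf -0.0048, and rescaling without mitochondrially encoded genes gave Fa2h -0.052, Trf -0.046 and Qdpr -0.0015. With a mouse left out, Aspa ranged from -0.036 to 0.017, Fa2h from -0.053 to 0.043, Gal3st1 from -0.071 to 0.032 and Trf from -0.050 to 0.067. In cKO against control, Apod was -0.034 without mitochondrially encoded genes, and Car2 ranged from -0.091 to 0.0018 with a mouse left out. Relative to Mbp, Cers2 was -0.16, Fa2h -0.19, Gal3st1 -0.14, Ugt8a -0.090, Qdpr -0.080, Klk6 -0.027 and Trf -0.026. Without Opalin and Ermn in the reference Fa2h was -0.020, and with a mouse left out it ranged from -0.025 to 0.034. The cause of these shifts was not tested. No paired analysis was possible because the labels give no replicate numbers. Some pathway genes near the threshold lost their call in part of the 22 alternatives, Mcoln1 in 14, Car14 and Pcbd2 in 13, Psap in 12, Enpp6 in 10, Anxa5 in 8, Bcas1 in 7, Papss1 in 6 and Sox10 in 5.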
